A study of Homo sapiens with 8 samples.

Results

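Of 153624 poly(A) peaks called in Kelly neuroblastoma cells, 1477 lay on processed pseudogenes. A peak was counted when it overlapped, by 1 bp or more, a GENCODE release 44 gene of the type processed_pseudogene or transcribed_processed_pseudogene, extended by 100 bp at its 3′ end. The 1477 peaks fell on 1099 of 10658 such pseudogenes. Of the peaks, 360 lay on 318 copies of ribosomal protein genes (names starting RPL or RPS) and 1117 on 781 copies of other genes. A total of 591 peaks lay on pseudogenes within introns of other genes, 390 on pseudogenes that met an exon of another gene, and 496 on pseudogenes outside other genes. The choice used position alone, so the strength and sequence of these peaks were not part of it.

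Kelly is an established human neuroblastoma cell line that carries extra copies of MYCN. Kelly E9R is its derivative with a mutant CDK12, changed at the cysteine to which THZ531 attaches. Kelly and Kelly E9R cells received either the solvent DMSO or 400 nM THZ531, a covalent inhibitor of CDK12 and CDK13, for 6 h, in 4 groups of 2 libraries. Reads of the 8 libraries were merged before peaks were called, so that no value below has a replicate and neither THZ531 with DMSO nor Kelly with Kelly E9R could be compared. QuantSeq 3′ REV libraries are primed with oligo(dT), and a read starts where the transcript meets its poly(A) tail.

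A processed pseudogene arises when an mRNA is copied back into DNA and inserted elsewhere in the genome. It therefore lacks the introns of its parent gene and often ends in a run of A left from the poly(A) tail. Genes for ribosomal proteins, which build the ribosome and are transcribed at high levels in dividing cells, have many such copies in the human genome. Where a copy is close in sequence to its parent, a short read cannot always be placed on one of them, and the reads here were kept when they mapped to up to 20 places. For every peak described below, transcription of the pseudogene, priming of oligo(dT) on its A tract and placement of reads from the parent gene cannot be told apart.

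The sequences at the 3′ ends of the strongest peaks are shown first, because they hold the start of the A tract and, in 5 of the 7 copies, the AATAAA signal before it. Each run has 30 bases of GRCh38 on the strand of the pseudogene, with AATAAA and the A tract in capitals. Where it is shown, the parent gene stands beneath at the same place, with AATAAA in capitals. The 4 strongest ribosomal protein copies come first, followed by PTMAP5, FABP5P7 and ENSG00000279392.
RPL13P12, chr17:17383352-17383381, minus strand: AATAAAgccctcctggggacttggaatAAA
RPL13, chr16:89563038-89563067, plus strand: AATAAAgccctcctggggacttggaatcag
RPS28P7, chr11:82689881-82689910, plus strand: ttaAATAAAgcgtttgtgtttcAAAAAAAA
RPS28, chr19:8322368-8322397, plus strand: ttaAATAAAgcgtttgtgtttcaagttaac
RPS23P8, chrX:70963315-70963344, plus strand: tagtAATAAAttttcatatgccAAAAAAAA
RPS23, chr5:82276058-82276087, minus strand: tagtAATAAAttttcatatgccaaaaaatg
RPS27AP5, chr1:192716660-192716689, plus strand: gacttAATAAAagacatgaactAAAAAAAA
RPS27A, chr2:55235584-55235613, plus strand: gagttAATAAAagacatgaactaacattta
PTMAP5, chr13:81691057-81691086, plus strand: ttttattttgctgagttgttctAAAAAAAA
PTMA, chr2:231713514-231713543, plus strand: ttttattttgctgagttgttctaacaaagc
FABP5P7, chr11:59781099-59781128, minus strand: AATAAATAAAtgtgtttgtgctaatatAAA
ENSG00000279392, chr14:55229913-55229942, plus strand: ctgcttcaatctacttcaaaagAAAAAAAA
UBE2L3, chr22:21621901-21621930, plus strand: ctgcttcaatctacttcaaaagaatggtgt
Up to the A tract, copy and parent were the same in RPL13P12, RPS28P7, RPS23P8, PTMAP5 and ENSG00000279392, and RPS27AP5 differed from RPS27A by 1 base. In the genome the tract then ran on for 28 A in RPL13P12, 35 A in RPS28P7, 16 A in RPS23P8 and 19 A in RPS27AP5, whereas the parent gene continued with 0, 2, 6 and 2 A.

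Peaks on ribosomal protein copies were strong. MACS2, the peak caller, gives each peak a fold enrichment, which is the pileup of extended reads at the summit plus 1 over the local background plus 1, and a −log10 q. The highest pileup of the whole list was 200 reads. This is also the ceiling for reads extended to 100 bp when 1 read per position and strand is kept. Whether duplicates were dropped is not given, so pileups of copies and parents may not measure read numbers. On ribosomal protein copies the median −log10 q was 11.1 (quartiles 6.22 and 23.6) and the median pileup 12 reads. On other processed pseudogenes these medians were 8.43 (quartiles 5.58 and 15.02) and 10 reads. Peaks at annotated ends of protein-coding transcripts had a median −log10 q of 14.0, peaks in exons 8.43 and peaks in introns 6.22. A −log10 q of at least 5, the limit the study set for its sample-specific peaks, was reached by 1203 of the 1477 peaks on processed pseudogenes (81.4%, 95% Wilson interval 79.4 to 83.3), beside 73.5% of all peaks. The share was 83.9% (79.7 to 87.3) for ribosomal protein copies and 80.7% (78.2 to 82.9) for the others. Among peaks in exons it was 82.8%. Intervals throughout cover counting error only.

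**Figure D1:**
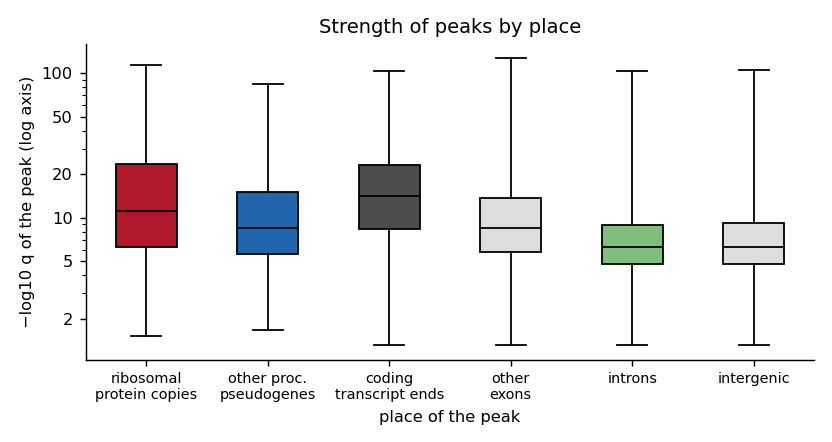
Strength of peaks by place, as the −log10 q of each peak on a log axis. Boxes span the quartiles with the median as a line, and whiskers reach the lowest and highest peak; the 360 peaks on ribosomal protein copies (median 11.1) lie between peaks at ends of protein-coding transcripts (14.0) and peaks in introns (6.22).

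The strongest peak of all ribosomal protein copies was on RPL13P12 (ENSG00000215030), a copy of the large-subunit gene RPL13, at chr17:17383331-17383502 outside other genes. Its pileup was 76 reads over a background of 0.81, a fold enrichment of 42.5 and a −log10 q of 113, and this fold was also the highest of all 153624 peaks. At the annotated end of RPL13 itself the strongest peak also had a pileup of 76 reads, with a fold of 10.5. RPS28P7, a copy of the small-subunit gene RPS28, lies in an intron of MIR4300HG on the opposite strand, at chr11:82689748-82689936 for its peak. It had a pileup of 74 reads and a fold of 42.4, against 19 reads and a fold of 6.41 at the end of RPS28. The place of RPS28 that matches the start of this tract lay at −951 bp from the nearest annotated transcript end. No peak counted for RPS28 ended within 50 bp of that place, so these pileups are from different sites. The third was RPS23P8 at chrX:70963161-70963352, with 62 reads and a fold of 36.4, where RPS23 had 80 reads and a fold of 14.9. In these 3 copies the fold exceeded that of the parent, while the pileup was equal, higher and lower than that of the parent.

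The other 7 of the 10 strongest ribosomal protein copies were RPS27AP5, RPS2P46, RPL13AP5, RPL7AP50, RPL3P4, RPS18P5 and RPL6P27, with pileups of 46 to 58 reads and folds of 24.3 to 33.3. RPS2P46, RPL7AP50 and RPS18P5 lay in introns, the last of them in PCNP on the opposite strand. RPL13AP5 (48 reads against 35), RPL3P4 (51 against 38), RPS18P5 (58 against 39) and RPL6P27 (50 against 49) had a higher pileup than the peak of their parent. For RPL13AP5 the matching place of RPL13A lay at −462 bp from an annotated end. No peak counted for RPL13A ended within 50 bp of that place. RPS27AP5 (51 against 78), RPS2P46 (51 against 70) and RPL7AP50 (46 against 74) had a lower one. All 10 strongest copies had a poly(A) motif before the 3′ end of the peak, and all 10 matched another place of the genome with 0 to 2 changes over the 100 bp around the summit.

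Among copies of other genes the strongest peak was on FABP5P7 (ENSG00000234964), a copy of FABP5, which codes for a fatty acid binding protein. The peak at chr11:59781085-59781356 lies in an intron of STX3 on the opposite strand and had a pileup of 61 reads and a fold of 33.5, where FABP5 had 27 reads and a fold of 8.89. ENSG00000279392, a copy of the ubiquitin-conjugating enzyme gene UBE2L3 on chromosome 14, followed with 52 reads and a fold of 33.8. PTMAP5, a copy of the prothymosin alpha gene PTMA, had 52 reads against 63 at PTMA. PET100P1, a copy of a gene for a cytochrome c oxidase assembly factor, had 44 reads against 10 at PET100. EEF1A1P6, a copy of the translation elongation factor gene EEF1A1, had 51 reads, as had EEF1A1. HSPA8P8, from the chaperone gene HSPA8, had 42 reads against 21, and XRCC6P2, from the DNA end-joining gene XRCC6, had 40 against 47. ENSG00000244313 is unnamed but matches RPS10 with 99.6% identity and had 47 reads against 58.

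The remaining 2 of the 10 strongest were annotations with several exons that span long stretches of genome. ENSG00000230021 covers chr1:586071-827796 and held 16 peaks, of which 7 had a pileup over 100. These 7 were the only peaks on processed pseudogenes with a pileup over 100, and all peaks of the list together had 16. They lay between chr1:629090 and chr1:634918, where the annotation also places pseudogenes of mitochondrial genes (such as MTND1P23 and MTCO1P12), and their backgrounds were high (28.8 to 36.2), which kept their folds between 3.90 and 5.23. ENSG00000270533 on chromosome 21 spans 11 exons and had a peak with a pileup of 53 reads. Annotations with several exons held 517 of the 1477 peaks, and 960 lay on single-exon annotations.

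A peak was found on 318 of 1587 ribosomal protein copies (20.04%, Wilson interval 18.1 to 22.1) and on 781 of 9071 other processed pseudogenes (8.61%, 8.05 to 9.20). The difference was 11.4 percentage points (two-sided Fisher's exact test with Benjamini-Hochberg adjustment over 4 shares, adjusted p = 2.25e-36). Copies of 1 parent share sequence and reads, so that this p counts them as more independent than they are. The name alone misses some copies: 105 further pseudogenes with a peak carried another name but matched a ribosomal protein gene best. With these included, the shares were 19.2% of 2200 and 7.99% of 8458.

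Pseudogenes close to their parent had peaks more often. A best matching protein-coding gene was found for 9617 of 10658 pseudogenes, and where the symbol also named a parent both pointed to the same gene in 6020 of 6175. Of ribosomal protein copies with an identity of up to 85%, 5.90% (24 of 407) had a peak. This share was 8.10% (34 of 420) from 85 to 90%, 21.4% (107 of 499) from 90 to 95%, 57.6% (87 of 151) from 95 to 98% and 84.4% (65 of 77, interval 74.7 to 90.9) over 98%. For copies of other genes it was 3.46% (93 of 2690), 6.23% (122 of 1959), 9.45% (223 of 2359), 26.98% (211 of 782) and 37.7% (103 of 273, interval 32.2 to 43.6) in the same bins. The median pileup of the strongest peak rose alongside, from 9 reads in the lowest bin of ribosomal protein copies to 24 reads in the highest, and from 9 to 16 reads in the others. The bins were chosen after the values were seen.

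**Figure D2:**
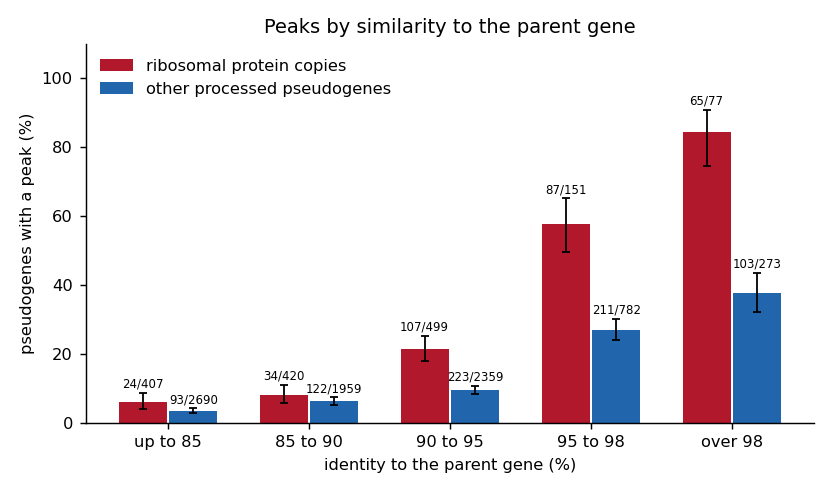
Share of processed pseudogenes with a peak (%), by identity to the parent gene in percent. Bars are shares, error bars 95% Wilson intervals and labels give the count with a peak over the count in the bin; ribosomal protein copies go from 5.90% to 84.4% and other processed pseudogenes from 3.46% to 37.7%.

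The parent's own peak went with the same difference. Among pseudogenes whose parent had a peak at an annotated transcript end, 1016 of 8541 had a peak (11.9%, interval 11.2 to 12.6). Among those whose parent had none, it was 53 of 1076 (4.93%, 3.79 to 6.39). Of ribosomal protein copies matched to a parent, 1550 of 1554 had a parent with such a peak.

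By function of the parent, with ribosomal protein genes left out, shares are set beside 7.99%. That is the share with a peak among pseudogenes that were ribosomal protein copies neither by name nor by sequence. The intervals of RNA binding and glycolysis genes include it. Median identity of the copies to their parents also differed, from 86.7% for glycolysis to 91.7% for RNA binding genes, and the shares were not adjusted for it. Copies of translation factor genes had a peak in 39 of 195 cases (20%, interval 14.99 to 26.2), with EEF1A1P6 as the strongest. Copies of chromatin and nucleolus genes, such as HMGB1, HMGN2, NPM1 and PTMA, had one in 50 of 333 (15.02%, 11.6 to 19.2). Genes of protein folding and degradation reached 48 of 373 (12.9%, 9.85 to 16.6), mitochondrial genes 62 of 501 (12.4%, 9.77 to 15.5), with CYCSP55 as the strongest, and RNA binding genes 21 of 240 (8.75%, 5.79 to 13.01). Glycolysis genes had 7 of 109 (6.42%, 3.15 to 12.7) and cytoskeleton genes 7 of 244 (2.87%, 1.40 to 5.80). The cytoskeleton copies came from actin and tubulin genes among others.

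The parents with the most copies with a peak were RPL7A (26 of 79 copies), RPL21 (24 of 149), RPL23A (19 of 96), RPS2 (16 of 62), RPL17 (14 of 60), RPS10 (14 of 34), RPS26 (14 of 62), RPSA (13 of 69), RPS15A (12 of 43) and FTH1 (11 of 21). FTH1 codes for the ferritin heavy chain; HMGB1, a chromatin protein, and RPL12 followed with 11 copies each, as did RPL13A, RPL36A, RPS20 and RPS3A. Copies of RPL7A ranged from 5 to 46 reads in pileup with a median of 11.5, below the 74 reads of RPL7A itself. Copies of FTH1 ranged from 5 to 32 reads, below the 58 reads of FTH1. In RPS26 the parent had 24 reads and 2 copies were higher, with 38 reads at most. Over all 487 parents with a peak of their own, 61 of 1016 copies (6.00%) had a higher pileup than the parent, and these copies came from 51 parents. RPS28 was such a case, with 4 of its 5 copies with a peak above it. Only peaks at annotated ends of a parent were counted, and these need not lie at the place that a copy matches. They did not for RPS28 and RPS28P7. For HMGN2, which codes for a nucleosome binding protein, 4 of 8 copies exceeded the 13 reads of the parent.

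**Figure D3:**
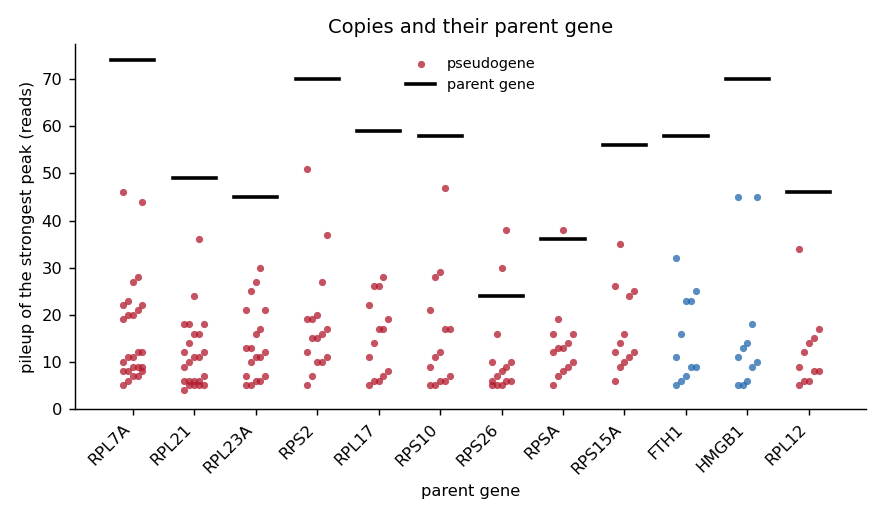
Pileup (reads) of the strongest peak of each pseudogene, as points, and of its parent gene, as a black line, for the 12 parents with the most copies with a peak. Red points are copies of ribosomal protein genes and blue points copies of FTH1 and HMGB1; points lie below the line except for 2 copies of RPS26 and 1 of RPSA.

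Along the pseudogene, peaks on ribosomal protein copies lay mostly near the 3′ end. The 3′ end of a peak, on the strand of the pseudogene, lay past the midpoint of the annotation in 1101 of 1477 cases (74.5%). The share was 88.6% (319 of 360) for ribosomal protein copies and 70.0% (782 of 1117) for the others. The extension by 100 bp at the 3′ end, by which the peaks were chosen, favours positions past the midpoint, so that these shares are given with no test. Of the 1020 peaks with a summit inside the annotation, 628 summits (61.6%, interval 58.5 to 64.5) lay past the midpoint. This share was 80.7% (180 of 223, 75.04 to 85.4) for ribosomal protein copies and 56.2% (448 of 797, 52.7 to 59.6) for the others. On ribosomal protein copies the peak ended a median of 49 bp beyond the annotated end (quartiles 3 and 69), and 249 of 360 peaks (69.2%) ended within 100 bp of it. On other processed pseudogenes the median position of the peak's 3′ end relative to the annotated end was −299 bp, inside the annotation. Counted once per peak, their annotations had a median length of 1249 bp, against 542 bp in ribosomal protein copies. Counted once per pseudogene with a peak, these medians were 760 and 494 bp. On single-exon annotations alone the median position was 36 bp beyond the annotated end for the others and 53 bp beyond it for ribosomal protein copies.

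A poly(A) signal stood before most of these ends. One of the 12 motifs used by the study lay in the 100 bp before the 3′ end in 310 of 360 peaks on ribosomal protein copies (86.1%, interval 82.2 to 89.3) and in 742 of 1117 peaks on other processed pseudogenes (66.4%, 63.6 to 69.1). Read on the other strand from the other end of the peak, the shares were 26.1% and 41.9%. Over all 1477 peaks, 626 had a motif only on the pseudogene's strand and 136 only on the opposite one (two-sided exact McNemar test, p = 6.78e-76). This comparison of strands, and the later ones, also compare the ends of the peak. The 3′ extension by which peaks were chosen favours the 3′ side, so the strand alone was not tested. Ribosomal protein copies exceeded the others by 19.7 percentage points (Fisher's exact test, adjusted p = 1.23e-13). For all 12 motifs, the share on the strand of the gene was 87.6% at ends of protein-coding transcripts, 68.2% in exons and 50.5% in introns. For the main signals AATAAA and ATTAAA the shares were 69.7% and 41.4% on the strand of the pseudogene. Elsewhere they were 72.0% at the ends of protein-coding transcripts, 38.0% in exons and 27.6% in introns.

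A-rich sequence was measured after the peak and at its own 3′ end. Within the 50 bp after the peak, an A stretch of 25 bases that allows up to 3 mismatches, which the study used to remove peaks, was present in 44 of 1477 peaks (2.98%) on the strand of the pseudogene and in 12 on the other one (p = 2.09e-05 by the exact McNemar test). On the strand of the gene, it was present in 8.67% of peaks in introns, 0.975% in exons and 0.772% at ends of protein-coding transcripts. Ribosomal protein copies had it in 4.44% and the others in 2.51% (difference 1.94 percentage points, adjusted p = 0.0979 by Fisher's exact test). Removal of peaks with such a stretch and no motif took 20 of the 1477 peaks, of which 0 were on ribosomal protein copies. A looser measure, 6 A in a row or 7 A of 10, was met by 59.6% of peaks on processed pseudogenes. Elsewhere it was met by 20.2% at ends of protein-coding transcripts, 49.6% in exons and 79.3% in introns.

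A run of at least 10 A within the last 60 bp of the peak, a measure added after the sequences were seen, was present in 232 of 1477 peaks (15.7%, interval 13.9 to 17.7) and in 16 when read on the other strand (1.08%). Because the measure was drawn from these same sequences, no test is given. It was found in 25.3% of peaks on ribosomal protein copies and 12.6% of those on other processed pseudogenes. Elsewhere it was found in 6.01% in introns, 1.77% in exons and 1.95% at ends of protein-coding transcripts. The share went up with the strength of the peak, from 1.89% (7 of 371) in the lowest quartile by −log10 q to 7.61%, 12.4% and 41.0% (151 of 368) in the highest. By the looser measure, A-rich sequence after the peak went the other way. It was met by 65.8% in the lowest quartile, then by 67.1%, 58.1% and 47.3%. When the 50 bp after the peak were included, 42.8% of peaks on ribosomal protein copies and 23.6% of the others had such a run.

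**Figure D4:**
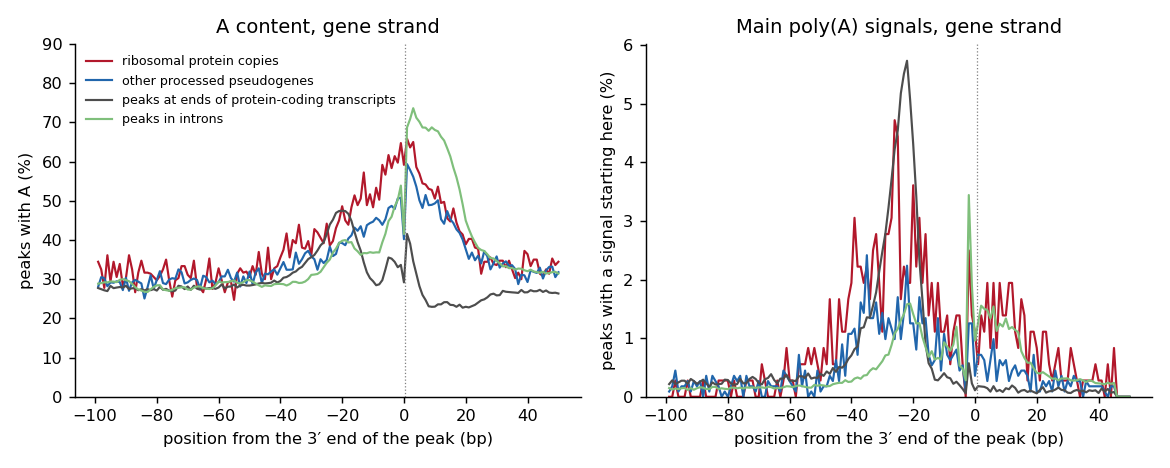
Base composition around the 3′ end of the peak (dotted line; negative positions are inside the peak), on the strand of the gene. Left, share of peaks with A at each position, which reaches 65.8% for ribosomal protein copies and 59.4% for other processed pseudogenes 1 bp past the end, 73.6% for introns at 3 bp and 47.4% at ends of protein-coding transcripts 20 bp inside; right, share of peaks with AATAAA or ATTAAA starting there, highest 26 bp before the end in ribosomal protein copies (4.72%) and 22 bp before it at ends of protein-coding transcripts (5.74%).

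The start of the A tract mostly marked the place where copy and parent part. For 214 of 230 peaks with a tract and a matched parent, the 20 bases before the tract were found at 1 place of the parent gene with at most 3 changes, and in 129 of these they were identical. At that place the parent gene itself had 0 to 3 A in 187 of 214 cases (87.4%, interval 82.3 to 91.2), with a median of 1 A. It had under 10 A in 205 of 214 (95.8%). In the rest the parent carried a run as long as a tract itself, such as the 11 A of RPL21 at the place matched by RPL21P97. The place lay within 10 bp of an annotated transcript end of the parent in 160 of 214 (74.8%, 68.5 to 80.1), at a median distance of 2 bp. In 103 of 214 the parent also had a peak that ended within 50 bp of it. The tract had a median length of 15 A (quartiles 12 and 18) and began a median of 16 bp inside the peak. AATAAA or ATTAAA lay 10 to 40 bp before it in 180 of 232 peaks (77.6%, 71.8 to 82.5).

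The sequence under many peaks was not unique. The 100 bp before the 3′ end matched another place of the genome or a spliced protein-coding transcript with at most 2 changes in 469 of 1477 peaks (31.8%), and without a change in 215 (14.6%). Ribosomal protein copies had such a match in 29.2% and the others in 32.6% (difference −3.42 percentage points, Fisher's exact test, adjusted p = 0.241). This window includes the A tract and bases after it. In the 100 bp centred on the summit, chosen after seeing the data, 565 peaks (38.3%) had a match, among them 42.2% of ribosomal protein copies and 36.97% of the others. The match was to a transcript of the assigned parent for 367 peaks. Peaks with a match at the summit had a median pileup of 12 reads and those without one of 9. By strength, 28.0% of peaks in the lowest quartile and 56.5% in the highest had a match. For none of the 1477 peaks were the 100 bp at the summit found unchanged at more than 13 places of chromosomes 1 to 22, X and Y, below the limit of 20 set for reads.

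Peaks on sequences that match each other did not carry equal pileups as a rule. Of 53 pairs of peaks on different pseudogenes with identical sequence over 100 bp at a summit, 5 had the same pileup, and the median ratio of the higher to the lower was 1.59. With 1 or 2 changes the median ratio was 1.67 over 251 pairs, and for 3524 pairs of the same parent with more changes it was 1.84. A single peak can be in several pairs. PPIAP11 in an intron of ATG10 and PPIAP29 in an intron of RIPOR2, both copies of the cyclophilin A gene PPIA and chosen here after their values were seen, had equal pileups of 39 reads and equal folds of 28.4. PPIA itself had 43 reads.

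Pseudogenes in introns had a peak in 155 of 784 ribosomal protein copies (19.8%) and in 381 of 3820 others (9.97%). Outside other genes the shares were 17.5% (127 of 727) and 6.13% (293 of 4783), and on pseudogenes that met an exon of another gene 47.4% (36 of 76) and 22.9% (107 of 468). Within introns, pseudogenes on the strand of the host gene had a peak more often than those on the opposite strand, in 249 of 1665 cases (14.96%, interval 13.3 to 16.7) against 256 of 2722 (9.40%, 8.36 to 10.6). The difference was 5.55 percentage points (two-sided Fisher's exact test, p = 4.22e-08). By Fisher's exact test it was 8.76 points among ribosomal protein copies (24.7% against 15.97%, p = 0.0039) and 4.91 points among the others (12.99% against 8.08%, p = 2.09e-06). Peaks carry no strand, so that a peak on the strand of the host may hold reads of the host transcript, and this part was not tested.

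**Figure D5:**
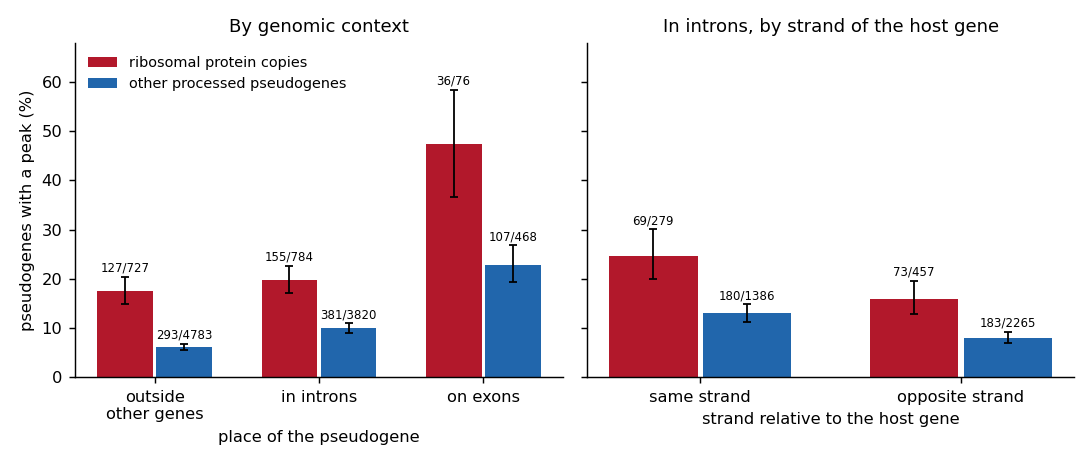
Share of processed pseudogenes with a peak (%), left by place and right, for those in introns, by strand relative to the host gene. Bars are shares, error bars 95% Wilson intervals and labels the counts; in introns the share was 24.7% on the same and 15.97% on the opposite strand for ribosomal protein copies, and 12.99% and 8.08% for the others.

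The median −log10 q of intronic peaks was 10.4 over 286 peaks on the opposite strand and 7.57 over 273 on the strand of the host, with no test run. Without a match at the summit, 151 of 191 peaks on the strand of the host (79.1%) and 78 of 159 on the opposite strand (49.1%) were followed by A-rich sequence in the looser sense. A poly(A) motif stood before 71.7% and 68.6% of these peaks.

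The 5 strongest intronic peaks without a match in the 100 bp before their 3′ end were RPS28P7, FABP5P7, RPS2P46, RPS18P5 and PET100P1, which all had a match at the summit. When a match at the summit was also excluded, a choice made after seeing the data, RPS15AP17 and RPS3AP47 led, and their ends are shown beside those of their parents.
RPS15AP17, chr4:62105613-62105642, minus strand: ttacaAATAAAatgcctcatggAAAAAAAA
RPS15A, chr16:18782962-18782991, minus strand: ttacaAATAAAatgcctcatggactctggt
RPS3AP47, chr15:43115648-43115677, minus strand: caAATAAAaagtgctatttgtgAAAAAAAA
RPS3A, chr4:151104615-151104644, plus strand: caAATAAAaagtgctatttgtgatggtttg
RPS15AP17, 92.6% identical to RPS15A, had a pileup of 35 reads and a fold of 25.7 on the strand of its host ADGRL3-AS1. RPS3AP47, 97.4% identical to RPS3A, had 36 reads and a fold of 25.2. In neither window did these peaks match another place with up to 2 changes, and both ended at a run of A longer than the 1 A of the parent gene at the same place, of 9 A in RPS15AP17, under the 10 A counted as a tract above, and of 25 A in RPS3AP47.

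Of all peaks, 603 lay outside chromosomes 1 to 22, X and Y. HAND2, GATA3, DBH and MYCN, markers of adrenergic neuroblastoma cells, each had a peak at an annotated transcript end. Of 10 markers of other cell types, 2 had one, EPCAM and COL1A1.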

How the data were processed

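Poly(A) 3′-sequencing reads of 8 libraries were trimmed with BBDuk, mapped with STAR 2.5.1b to GRCh38 with spike-in sequences, merged and passed to MACS2 2.1.1 by the authors (reads extended to 100 bp, no shift). Versions follow the submitters' processing notes. The deposited table is 1 peak list, with a fold enrichment (a ratio to local background), −log10 p and −log10 q per peak, and a score that the authors' caller derives from the q-value. It has 0 columns per library, so depth per library is unknown. Duplicate handling and the q cut-off of the peak calling are not given in the sources used here. A later limit on −log10 q, of at least 5, was set by the authors for sample-specific peaks and is used here as an alternative.

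Pileup and background were recovered from fold and −log10 p by MACS2's formulas. Only whole pileups were tried, so that a whole pileup for 100% of peaks is no check of them. The recovery was tested on simulated data, with backgrounds below those of the 7 peaks on processed pseudogenes with a pileup over 100. Peaks on 24 chromosomes were assigned with GENCODE 44 (Python 3.11.15, pandas 2.3.3, SciPy 1.17.1, pysam 0.24.0). Windows at ends of protein-coding transcripts run from 200 bp before to 600 bp after the annotated end. Parents were the best matches of the spliced pseudogene among protein-coding transcripts, and copies of peak windows were searched in the genome and in these transcripts (BLAST+ 2.17.0). Identity is that of the aligned stretch. Pseudogenes overlapping their best match were matched to the next gene.

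Shares carry 95% Wilson intervals, and tests were exact and two-sided. The text names the 10 ribosomal protein copies and the 10 others with the highest −log10 q, the 5 strongest intronic pseudogenes without another copy and the 10 parents with most copies with a peak. Members and lists were chosen with earlier results of these data known. The planned test of THZ531 against DMSO needed counts per library and was not run. The labels give 400 nM THZ531, and the published methods name another dose for these lines. Not every cell type marker checked is reported here.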

Additional observations from a re-analysis of the deposited data

How the results depend on the processing

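No paired analysis was possible because the peak list was called on merged reads and holds no value per library; for the same reason no library could be left out. The 1477 peaks became 960 on single-exon annotations, an alternative chosen after seeing the data. The share of processed pseudogenes with a peak, 10.3%, was 8.79% at a −log10 q of at least 5, 5.26% at 10 and 9.65% on single-exon annotations. Ribosomal protein copies made up 28.9% of pseudogenes with a peak and 32.4% on single-exon annotations. The share of peaks with another copy of their sequence, 31.8%, was 14.6% with 0 changes, 50.4% with up to 5 changes, 41.4% in a 75 bp window and 38.3% at the summit. Between ribosomal protein copies and the others this share differed by −3.42 percentage points when copies were told by name (Fisher's exact test, adjusted p = 0.241) and by −8.43 points when they were told by the sequence of the parent, chosen after seeing the data (adjusted p = 0.00145). The cause of these shifts was not tested beyond the construction of each alternative. The share of peaks past the midpoint of the pseudogene, 74.5%, ranged from 61.6% to 84.9% over its alternatives; its test against an even split is not used, since the 3′ extension favours that side. The tests of poly(A) signal, A-rich sequence, ribosomal protein copies with a peak and orientation to the host gene kept their direction and their side of the threshold of 0.05 under the alternatives run for each. A weak peak may be missed at this depth, so a pseudogene without a peak is not shown to be silent.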
